A study of Homo sapiens with 4 samples.

Results

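Carbonic anhydrases are zinc enzymes that interconvert carbon dioxide and water with bicarbonate and a proton, and so help to set the pH inside and around a cell. CA2 is the fast cytosolic form, known from red blood cells, kidney and osteoclasts. CA9 and CA12 sit in the plasma membrane with the active site outside the cell and are studied in tumours, CA9 for its induction by low oxygen and CA12 for its response to oestrogen receptor. CA5B is a mitochondrial form, CA13 a second cytosolic form, and CA8 and CA11 are related proteins that lack the catalytic activity of the family.

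These 7 genes (CA2, CA5B, CA8, CA9, CA11, CA12 and CA13) were followed among the 60605 annotated genes of the libraries. CA2 was selected on its lower level after etoposide in these same libraries, and the other 6 were taken for contrast, so that every value of CA2 for etoposide against DMSO is given as a description with no test. A member's level is the FPKM (fragments per kilobase of transcript, set relative to all fragments mapped in that library) summed over its annotated transcripts.

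The RNA came from OVCAR3, an established line of ovarian adenocarcinoma cells grown from malignant ascites. Cells were arrested with 100 ng/mL nocodazole, a microtubule poison, for 16 h, released into fresh medium for 3 h, and then given 1.7 µM etoposide, which traps topoisomerase II on broken DNA, or its vehicle DMSO for 24 h. There were 2 libraries of DMSO treated cells and 2 of etoposide treated cells, labelled as biological replicates, and the values are those of 1 cell line at 1 dose and 1 time, after nocodazole in both groups. The study's text on sequencing mentions transfected cells, which the labels of these libraries do not.

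The DMSO libraries held about 64500000 and 66500000 mapped read pairs, and those of etoposide 47700000 and 58500000, as read from the ratio of FPKM to coverage. The log2 difference between DMSO replicates 2 and 1 rose with the length of a transcript and fell with its GC content (Spearman correlations across genes 0.317 and −0.340), with values of 0.0173 and −0.0164 for the etoposide replicates. Genes are not independent, so these are descriptions. All 10 markers of serous carcinoma epithelium were detected, with KRT8, a keratin, reaching an FPKM of 1266. Among 22185 genes whose mean FPKM reached 0.1, limma with Benjamini-Hochberg adjustment called 0 (0%) at an adjusted p of 0.05, while 2643 had an unadjusted p under 0.05, and the voom form of the same tool called 1. The smallest adjusted p was 0.169, the fit without DMSO replicate 2 called 1934, and an exact two-sided permutation test of 1 gene in 2 against 2 libraries cannot go below 0.333.

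CA2 made up most of the carbonic anhydrase RNA in these cells and its groups lay apart, which is what it was chosen for. Its FPKM was 118.1 and 120.5 after DMSO and 76.1 and 76.9 after etoposide. The groups did not overlap, and the replicates lay close together, with replicate 2 at 1.02 times replicate 1 in DMSO and 1.01 times in etoposide. The mean in etoposide treated cells was 64.1% of that in DMSO treated cells, a difference of −0.64 (SE 0.067) on the scale log2(FPKM + 0.1). TPM, which is scaled to 1 total in every library, gave 260.2 and 279.0 for DMSO against 178.9 and 183.1 for etoposide. In this series, 3.06% of the genes tested were lower by at least 1.5-fold, and 19.0% were lower with no overlap between groups. CA2 belongs to both sets by the way it was chosen, so nothing is read from its being there.

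**Figure D1:**
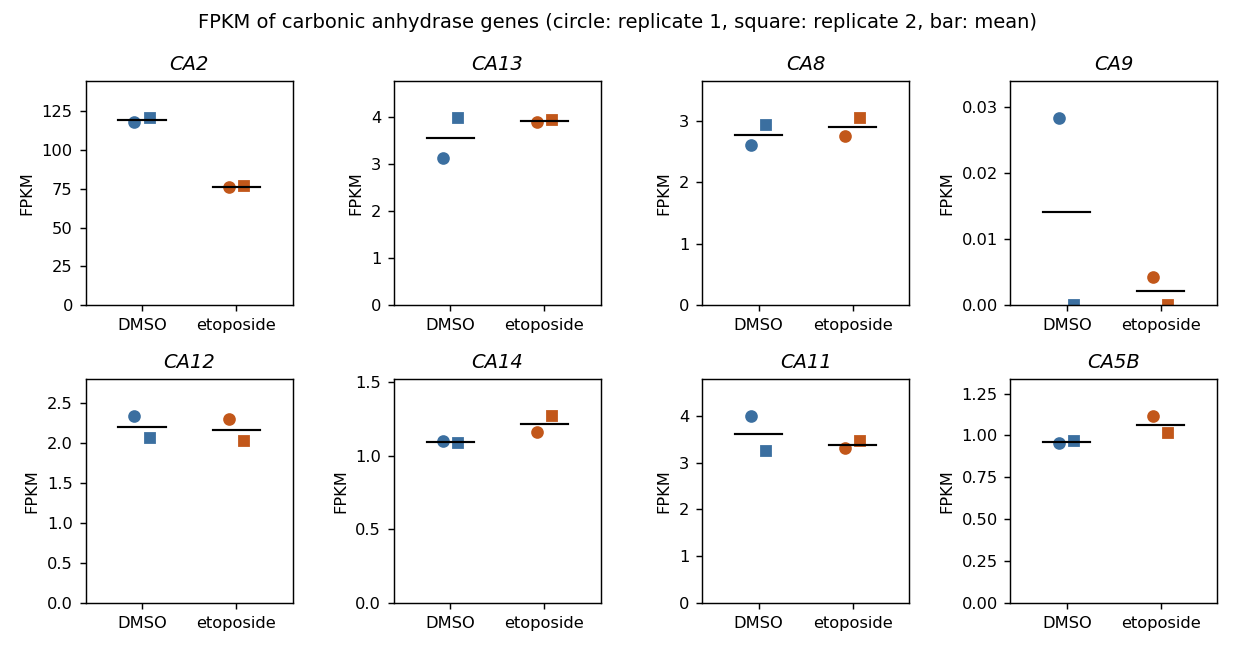
FPKM (vertical axes, each from 0 with its own scale) of the 7 genes and of CA14 in DMSO and etoposide treated cells, with a point for each library and a bar for the mean of 2. CA2 goes from about 120.5 at its highest to 76.1 at its lowest, the groups of CA8, CA11, CA12 and CA13 overlap, and the CA9 panel spans values of no more than 0.028.

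The level of CA2 and its difference can be placed among other abundant genes as a description, since the same values chose CA2. Of 1057 protein-coding genes of the nuclear genome whose mean FPKM reached 50, 5 others were lower by as much as CA2, among them ATP5F1A, a subunit of the mitochondrial ATP synthase, the LIM protein gene CRIP2, the linker histone gene H1-2 and the core histone gene H2BC12. The median log2 difference of the 1057 was −0.05. By level, CA2 ranked 388 and 365 among protein-coding genes of the nuclear genome after DMSO, and 623 and 617 after etoposide.

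**Figure D2:**
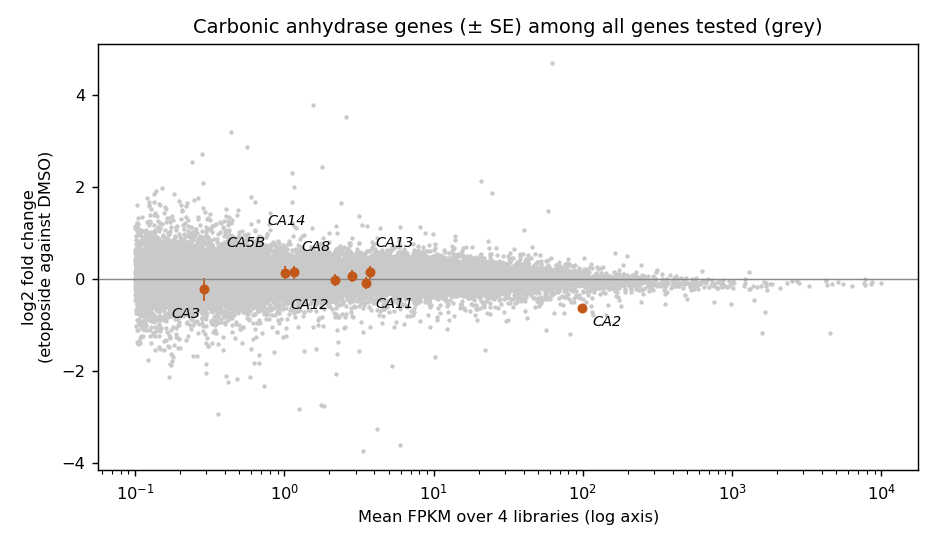
Log2 difference of FPKM between etoposide and DMSO (vertical axis) against the mean FPKM of 4 libraries (horizontal, log axis) for 22185 genes in grey, with the 8 tested carbonic anhydrase genes and their SE in orange. CA2, which was chosen for its difference, lies at −0.64, and the other 7 lie between −0.23 and 0.15.

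The lower level of CA2 ran along its whole length. CA2 (ENSG00000104267) lies on the forward strand at chr8:85463968-85481493 of GRCh38 and has 5 annotated transcripts. The leading transcript, ENST00000285379, has 7 exons and 1562 bases, and held 92.9% and 91.0% of the FPKM of the gene with DMSO and 92.0% and 92.9% with etoposide. Its own FPKM was 109.8 and 109.7 in DMSO and 70.0 and 71.4 in etoposide. The gene value was therefore mostly that of 1 transcript, whose share was about the same in both groups. The next transcript, ENST00000520127, had 4.38 and 6.12 in DMSO and 3.90 and 3.97 in etoposide, and the other 3 transcripts did not exceed 2.18 in any library.

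All 7 exons of the leading transcript were lower in both etoposide libraries than in both DMSO libraries. After scaling coverage to the library, as FPKM is, the exons of etoposide treated cells were at 62.6% (exon 7, the longest, with 824 bases) to 67.1% (exon 4) of their level in DMSO treated cells. Exon 1 had 82.4 and 82.5 in DMSO and 53.6 and 52.0 in etoposide, and exon 5, the highest by the mean of either group, had 177.2 and 182.8 against 117.7 and 122.2. The raw coverage per base behind these values was 467 to 2431. StringTie divides the reads of a shared exon among transcripts, which makes exon values estimates.

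**Figure D3:**
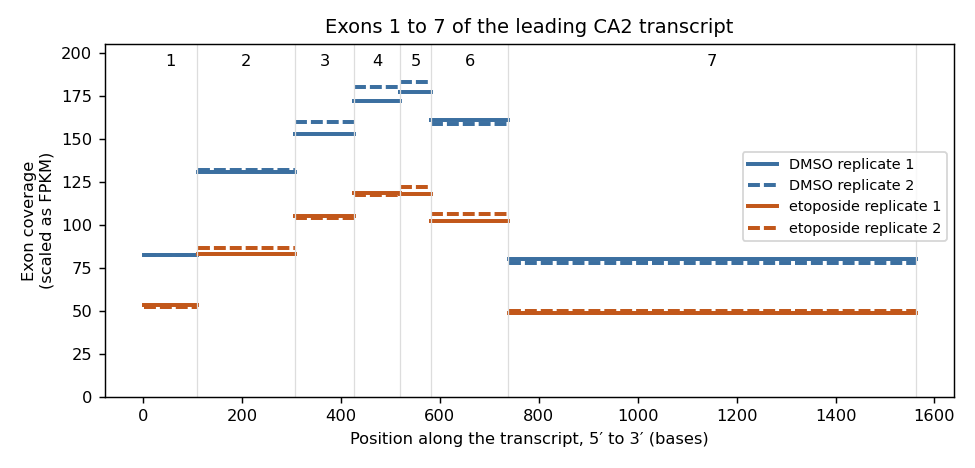
Coverage of exons 1 to 7 of the leading CA2 transcript, scaled as FPKM (vertical axis, from 0), along the transcript in bases (horizontal). Each line is 1 library, and in every exon both etoposide libraries (orange) lie below both DMSO libraries (blue), with exons 4 and 5 highest and exons 1 and 7 lowest in all 4.

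Because CA2 is abundant in red blood cells, marker genes of these and of other cell types were read in the same libraries. OVCAR3 is an established line, so that these values are a description. Of 7 erythroid genes, HBB and AHSP were among those listed at 0 in every library, and the highest value of the list was 0.049, for HBA1. Markers of fibroblasts (6 genes) summed to 6.93 and 6.99 in DMSO and 8.40 and 8.18 in etoposide, markers of leukocytes (5 genes) to 1.70 and 1.40 against 1.12 and 1.29, and those of endothelium (3 genes) to 0.641 and 0.601 against 1.02 and 0.857. Most of the 10 epithelial markers were lower in etoposide, though 0 were called by limma. Their summed FPKM was 3507 and 3116 in DMSO and 2442 and 2512 in etoposide, 8 of the 10 were lower with no overlap between groups, beside 19.0% of all genes tested, and their median log2 difference was −0.41. KRT8 and KRT18, a keratin pair, made up most of the sum. The adhesion genes EPCAM and CDH1 were not lower, with 123.8 and 124.5 in DMSO against 126.9 and 133.7 in etoposide for EPCAM and a log2 difference of 0.0029 for CDH1. The part of these markers in the CA2 result was not tested, and in bulk RNA fewer cells of a type and less RNA per cell cannot be told apart.

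CA2 is part of a cluster of carbonic anhydrase genes on the long arm of its chromosome, with CA13, CA1 and CA3 upstream of it. Within 500 kb of CA2, 31 genes are annotated, of which 12 had a mean FPKM of at least 0.1. Of the 11 others, 4 were lower in etoposide with no overlap between groups, 1 was higher with no overlap, and 6 overlapped. Over all genes tested, groups did not overlap for 47.9%, and 19.0% were lower with no overlap.

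The neighbour nearest to CA2 is CA3-AS1, a long non-coding RNA gene on the opposite strand whose 5′ end lies 0.947 kb inside the CA2 locus. Its FPKM was 3.28 and 2.98 in DMSO and 2.26 and 1.83 in etoposide, with no overlap (log2 difference −0.60, SE 0.15, limma adjusted p = 0.313). Its level and that of CA2 thus differed in the same direction and by a like amount, though CA3-AS1 did not pass the test. The exons of CA3-AS1 share no base with those of CA2. The authors counted without a strand option, so that reads from unspliced CA2 RNA could not be told from its own where the genes overlap. Its leading transcript, ENST00000524052, has 3 exons, all outside CA2, at 50.8% to 60.3% of DMSO without overlap between groups. Exons outside CA2 in its other transcripts with a mean FPKM of at least 0.1 ran from 28.7% to 122.2%. These are partly the same bases. Exon 2 of the leading transcript is also exon 2 of ENST00000654303, ENST00000660227 and ENST00000521761, where it was at 94.2%, 37.5% and 122.2%. StringTie divides the reads of such a shared exon, so that the value of 1 transcript depends on that division. Exon 1 of ENST00000521761, inside CA2, was at 115.4% with overlapping groups. The part of unspliced CA2 RNA in these values was not tested.

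Further off, values went in both directions. CA3, the muscle form of the enzyme, starts at −90.5 kb from CA2 and was low, with 0.378 and 0.267 in DMSO and 0.242 and 0.274 in etoposide (log2 difference −0.23, SE 0.25, limma adjusted p = 0.711). LRRCC1, a centrosome protein gene, had 5.43 and 6.56 in DMSO and 7.19 and 7.22 in etoposide (log2 difference 0.27, limma adjusted p = 0.435). The difference was 0.40 without DMSO replicate 2, 0.13 without DMSO replicate 1 and 0.07 with length and GC content corrected. E2F5, a transcription factor of the cell cycle, had 8.68 and 8.76 against 8.16 and 7.45 (limma adjusted p = 0.508). Of these neighbours, only E2F5 and LRRCC1 had groups that did not overlap. The ribosome biogenesis factor gene RBIS, whose 5′ end is next to that of CA13, had 46.6 and 38.8 in DMSO and 38.9 and 39.6 in etoposide, and E2F5-DT, ENSG00000254208 and the pseudogene ENSG00000253680 stayed under 0.44 in every library with overlapping groups.

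The largest log2 differences of the region belonged to a pair of low non-coding genes downstream of CA2. ENSG00000253154, at 369 kb, had 0.741 and 0.667 in DMSO and 0.299 and 0.171 in etoposide (log2 difference −1.29, SE 0.26, limma adjusted p = 0.274). Without etoposide replicate 1 the difference was −1.56, and without etoposide replicate 2 it was −1.01. ENSG00000287927, whose 5′ end is at 513 kb, had 1.11 and 1.33 against 0.647 and 0.556 (log2 difference −0.91, SE 0.18, limma adjusted p = 0.274). Both were lower without overlap.

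**Figure D4:**
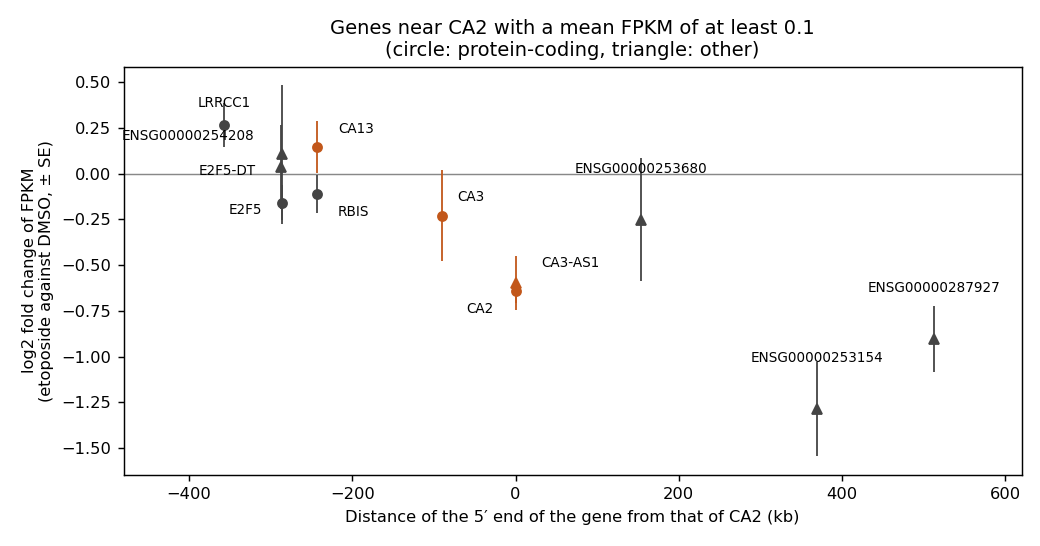
Log2 difference of FPKM between etoposide and DMSO with its SE (vertical axis) for the 12 genes near CA2 whose mean FPKM reached 0.1, against the distance of the 5′ end from that of CA2 in kb. CA2 (−0.64) and CA3-AS1 (−0.60) coincide at the centre, genes upstream lie between −0.23 and 0.27, and a pair of non-coding genes downstream lies at −1.29 and −0.91.

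CA13 is the other cytosolic member that was expressed. It lies at chr8:85220587-85284073, with its 5′ end at −243 kb from that of CA2 on the same strand. Its FPKM was 3.13 and 3.97 in DMSO and 3.90 and 3.93 in etoposide. DMSO replicate 1 was the low library, with DMSO replicate 2 at 1.27 times its value, and the groups overlapped. The log2 difference was 0.15 (SE 0.14, 95% interval −0.20 to 0.49, limma adjusted p = 0.676), and it was −0.02 without DMSO replicate 1. The leading transcript, ENST00000321764, had 1.75 and 2.14 in DMSO and 2.36 and 2.47 in etoposide, and the shorter ENST00000522631 had 0.818 and 0.719 against 0.883 and 0.855. Neither transcript overlapped between groups, while ENST00000517831 had its highest value, 0.461, in DMSO replicate 2 and no more than 0.126 in the other libraries.

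The related proteins without catalytic activity were expressed at similar levels in both groups. CA8, which binds the inositol trisphosphate receptor, lies on the reverse strand at chr8:60185412-60281400. It had an FPKM of 2.60 and 2.93 in DMSO and 2.74 and 3.03 in etoposide, with a log2 difference of 0.06 (SE 0.13, 95% interval −0.25 to 0.38, limma adjusted p = 0.853). Most of it came from a pair of transcripts, ENST00000317995 with 50.4% to 58.0% of the gene and ENST00000524872 with 38.6% to 46.3%. CA11, at chr19:48637946-48646187 on the reverse strand, had 3.997 and 3.25 in DMSO and 3.32 and 3.45 in etoposide, with a log2 difference of −0.09 (SE 0.14, 95% interval −0.42 to 0.24, limma adjusted p = 0.801). The groups of both genes overlapped, and without DMSO replicate 1 the sign of each turned, to −0.02 for CA8 and 0.06 for CA11.

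CA5B, the mitochondrial form, was the 1 member besides CA2 whose groups did not overlap, beside 47.9% of all genes tested, so that nothing is read from this. CA5B was higher in etoposide, by a small amount. It lies on the forward strand at chrX:15688830-15788411 and had 0.958 and 0.964 in DMSO and 1.12 and 1.01 in etoposide, with a log2 difference of 0.13 (SE 0.15, 95% interval −0.24 to 0.51, limma adjusted p = 0.726). Its full-length transcript ENST00000318636, with 6837 bases, did not share that order, with 0.552 and 0.554 in DMSO and 0.522 and 0.560 in etoposide. The higher mean of the gene came from short transcripts, chiefly ENST00000498004 of 488 bases. It had 0.182 and 0.231 in DMSO and 0.440 and 0.228 in etoposide, so that it was high in etoposide replicate 1 alone. This transcript begins within CA5BP1, a pseudogene copy of CA5B on the same strand that shares 29 exon bases with it. CA5BP1 had 5.61 and 6.42 in DMSO and 8.16 and 8.005 in etoposide (log2 difference 0.42, SE 0.11, limma adjusted p = 0.321). The difference was 0.52 without DMSO replicate 2 and 0.33 without DMSO replicate 1. CA5BP1 was several times higher than CA5B in each library, and reads of near-identical copies can be divided between them in error, so that the CA5B value is uncertain.

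The membrane forms split into CA12, which was expressed, and CA9, which was at or near 0. To show the start regions of both, 100 bases before the annotated start of each are printed from RefSeq on GRCh38.p14, on the strand of the gene, 5′ to 3′, and capitals mark the core letters of a hypoxia response element, ACGTG, read on the other strand as CACGT.

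CA9, chr9:35673828-35673927, forward strand: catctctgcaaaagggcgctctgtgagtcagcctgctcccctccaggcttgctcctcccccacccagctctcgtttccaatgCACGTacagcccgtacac

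CA12, chr15:63381847-63381946, reverse strand: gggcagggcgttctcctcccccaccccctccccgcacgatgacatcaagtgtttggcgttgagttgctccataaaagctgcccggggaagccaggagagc

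The motif was searched on both strands of 300 bases, 250 before and 50 after each start. The match in CA9 begins at position −18 from the start, the CA12 window holds no match, and CA5B, the only other member in that table, has 1 match downstream of its start. Of 35116 promoters, 7518 (21.4%) hold these letters, and a match is a description of the sequence.

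CA9 (chr9:35673918-35681159) had an FPKM of 0.028 in DMSO replicate 1 and 0.0042 in etoposide replicate 1, and was listed at 0 in replicate 2 of both groups. It fell under the minimum of 0.1 for the test, and no fold is given. Of its 1608 exon bases, 581 (36.1%) overlap exons of ARHGEF39 on the opposite strand, which had 7.71 and 7.74 in DMSO and 6.27 and 5.86 in etoposide, so that even the few fragments assigned to CA9 cannot be placed on 1 strand. CA12 (chr15:63321378-63381846, reverse strand) had 2.33 and 2.06 in DMSO and 2.30 and 2.02 in etoposide. Its groups overlapped, and the log2 difference was −0.03 (SE 0.14, 95% interval −0.36 to 0.31, limma adjusted p = 0.949), which became 0.04 with TPM. Its leading transcript, ENST00000178638, held 88.9% to 94.6% of the gene. CA14, a further membrane form that is no member of the 7, had 1.10 and 1.09 in DMSO and 1.16 and 1.27 in etoposide (log2 difference 0.14, SE 0.15, limma adjusted p = 0.699).

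Set in order by FPKM, CA2 was 19.5 to 30.3 times the next gene of the family in every library. CA11 and CA13 followed, with ranges of 3.25 to 3.997 and 3.13 to 3.97 that overlap, then CA8 (2.60 to 3.03) and CA12 (2.02 to 2.33), which overlap with neither neighbour in that order. CA14 (1.09 to 1.27) and CA5B (0.958 to 1.12) overlapped with each other, and CA3 was lower still. CA1, CA4, CA6 and CA7 had no value above 0.103 in any library, and CA5A, CA10 and the pseudogene CA15P2 were listed at 0 throughout, with CA15P1 at 0.0759 in DMSO replicate 2 alone. The whole family of 15 genes summed to 132.7 and 135.1 in DMSO and 91.0 and 92.0 in etoposide. Without CA2 it summed to 14.6 and 14.6 against 14.8 and 15.1, so that the lower total after etoposide came from CA2. The share of CA2 in the total was 89.0% and 89.2% in DMSO and 83.7% and 83.5% in etoposide.

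Of the 6 members other than CA2, 5 passed the filter on low values. By log2 difference 3 were higher and 2 lower and the median was 0.06, beside 12458 higher and 9727 lower and a median of 0.04 among all genes tested. None of the 5 was called by limma, and 0 genes were called in all. A p above the threshold does not show that these genes were unchanged, and their 95% intervals together run from −0.42 to 0.51.

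Bicarbonate and protons made by carbonic anhydrases are carried by transporters, and lists of these and of related genes were read beside the family. Of 15 genes of the SLC4 and SLC26 families, which hold bicarbonate transporters, 11 were tested, 5 higher and 6 lower. Their median log2 difference was −0.03. SLC4A2, the anion exchanger with the highest level, had 25.4 and 23.7 in DMSO and 23.0 and 23.0 in etoposide. SLC4A7, a sodium bicarbonate cotransporter, had 5.15 and 8.96 against 9.60 and 9.87 (log2 difference 0.51, SE 0.25, limma adjusted p = 0.451). Its low library was DMSO replicate 1. Without DMSO replicate 2 the log2 difference was 0.91, without DMSO replicate 1 it was 0.12, and with length and GC content corrected it was 0.27. SLC4A11, a transporter of the same family, had 8.80 and 6.93 against 6.73 and 6.41 (log2 difference −0.25, limma adjusted p = 0.483). The difference was −0.42 without DMSO replicate 2 and −0.08 without DMSO replicate 1. SLC26A6, an anion exchanger, overlapped between groups (log2 difference 0.21, SE 0.15).

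Sodium-proton exchangers, which move protons out of the cytosol or into organelles, were 6 higher and 3 lower of 9 tested, with a median of 0.04. SLC9A7 of the trans-Golgi network had 1.39 and 1.79 in DMSO and 2.26 and 2.09 in etoposide (log2 difference 0.44, SE 0.16, limma adjusted p = 0.400), and a log2 difference of 0.22 with length and GC content corrected. The log2 differences of SLC9A3 and SLC9A8 were −0.33 and −0.25. The direction thus varied from gene to gene.

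Monocarboxylate transporters, which move lactate together with protons, were read with their chaperones. The median was 0.17 over 6 genes, with 5 higher, 1 lower and 0 called. SLC16A7 had 1.35 and 2.24 in DMSO and 2.91 and 2.90 in etoposide (log2 difference 0.71, SE 0.23, limma adjusted p = 0.378). The chaperone EMB had 3.31 and 4.204 against 4.89 and 5.11, and SLC16A1, the main lactate carrier, had 15.5 and 16.9 against 18.3 and 18.1. BSG, the chaperone of SLC16A1, went the other way, with 173.3 and 151.1 in DMSO and 145.0 and 144.9 in etoposide (log2 difference −0.16, SE 0.088). Without DMSO replicate 2, the log2 differences were 1.05 for SLC16A7, 0.58 for EMB, 0.24 for SLC16A1 and −0.26 for BSG. Without DMSO replicate 1, the log2 differences were 0.36 for SLC16A7, 0.24 for EMB, 0.11 for SLC16A1 and −0.06 for BSG. With length and GC content corrected they were 0.35, 0.20, 0.020 and −0.05. In each of these 4 genes DMSO replicate 2 lay between DMSO replicate 1 and the etoposide libraries, and the part of the difference between the DMSO libraries in these values was not tested.

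Subunits of the V-type proton pump, which acidifies lysosomes, were 7 higher and 11 lower of 18 tested, with a median of −0.06. Groups did not overlap for 9 of the 18, 3 lower and 6 higher, beside 47.9% of all genes tested. ATP6V1B1 and ATP6V0D2, subunits known from kidney and osteoclasts, had no overlap, with 3.41 and 3.26 in DMSO and 2.17 and 2.61 in etoposide for the former (log2 difference −0.47, SE 0.13, limma adjusted p = 0.342) and 1.66 and 1.59 against 1.23 and 1.31 for the latter (log2 difference −0.34, SE 0.14, limma adjusted p = 0.417). The catalytic subunit gene ATP6V1A was higher (log2 difference 0.25, SE 0.11, limma adjusted p = 0.436). Its difference was 0.40 without DMSO replicate 2, 0.11 without DMSO replicate 1 and 0.08 with length and GC content corrected. ATP6V0C, the highest subunit, overlapped between groups with 61.0 to 71.2 over the 4 libraries.

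Enzymes that use bicarbonate as a substrate were 3 higher and 6 lower of 9, with a median of −0.04. PC, the pyruvate carboxylase, had 4.98 and 4.71 in DMSO and 3.69 and 4.07 in etoposide (log2 difference −0.31, SE 0.11, limma adjusted p = 0.390). PCCB, a subunit of propionyl-CoA carboxylase, had 29.6 and 26.1 against 16.4 and 27.0. Its low value was that of etoposide replicate 1 alone, and its limma adjusted p was 0.493 with all libraries. Its log2 difference was −0.40 with all libraries, −0.75 without etoposide replicate 2 and −0.04 without etoposide replicate 1. ACACB, an acetyl-CoA carboxylase, had a log2 difference of 0.30 (SE 0.14), and MCCC2 one of −0.04 (SE 0.079).

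The hypoxia genes known together with CA9 were expressed in these cells, while CA9 was at or near 0. The median was 0.12 over 15 tested, with 9 higher, 6 lower and 0 called. The list joins genes induced by low oxygen with their regulators. The regulators HIF1A, EPAS1, ARNT, VHL and EGLN1 were all higher, with log2 differences of 0.18, 0.24, 0.11, 0.19 and 0.14. Of the induced genes, ADM, EGLN3, PDK1 and BNIP3 were higher, and VEGFA, SLC2A1, NDRG1, ANKRD37, LDHA and PGK1 were lower. The median of the list is therefore not that of the induced genes alone. LDHA, which makes lactate, had 252.0 and 251.0 in DMSO and 229.4 and 221.9 in etoposide (log2 difference −0.16, SE 0.067), and the glucose transporter gene SLC2A1 had 26.04 and 25.4 against 21.0 and 21.1 (log2 difference −0.29, SE 0.075, limma adjusted p = 0.333). Without DMSO replicate 2 the difference of SLC2A1 was −0.31, and without DMSO replicate 1 it was −0.27. EPAS1, a hypoxia-inducible factor gene, had 3.94 and 4.21 against 4.83 and 4.82 (log2 difference 0.24, SE 0.10, limma adjusted p = 0.427), and PDK1 had 1.77 and 2.02 against 1.98 and 2.92. In the list 7 genes were higher and 4 lower with no overlap between groups, and over all genes tested groups did not overlap for 47.9%, with 19.0% lower. With length and GC content corrected, the log2 difference was 0.090 for PDK1 and 0.16 for EPAS1, against 0.33 and 0.24 without the correction.

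Of 8 oestrogen genes known together with CA12, 4 were tested, 3 higher and 1 lower, and TFF1 was listed at 0 in every library. The oestrogen receptor gene ESR1 was near 0, with 0.0059 and 0.0099 in DMSO and 0.027 and 0.019 in etoposide. PGR did not exceed 0.0026 and GATA3 did not exceed 0.020 in any library. A response to oestrogen was not tested. XBP1, a transcription factor of the secretory pathway, had 74.0 and 75.4 in DMSO and 59.5 and 63.8 in etoposide (log2 difference −0.28, SE 0.074, limma adjusted p = 0.336). MYB, a transcription factor, had 0.841 and 0.944 against 1.26 and 1.29 (log2 difference 0.47, SE 0.15, limma adjusted p = 0.373), and PDZK1, a scaffold protein gene, overlapped between groups.

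**Figure D5:**
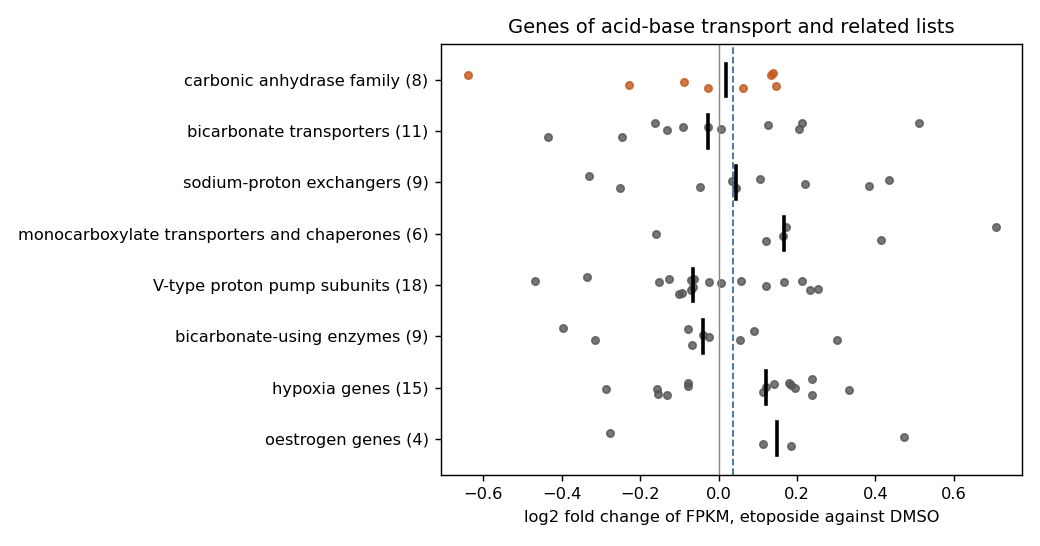
Log2 difference of FPKM between etoposide and DMSO (horizontal axis) of each tested gene in the carbonic anhydrase family and 7 related lists, with the number tested in brackets, a black bar for the median of a list and a dashed line for the median of all genes tested (0.04). The 8 family genes have a median of 0.02 with CA2 apart on the left at −0.64, and the list medians lie between −0.06 and 0.17.

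The pattern of CA2 over the 4 libraries was shared closely by TMEM100, LRRN2, KCNJ5 and H2BC18, which were among the 5 nearest of 11500 protein-coding genes whose mean FPKM reached 1. Likeness was the root mean square difference of the centred log2 values over 4 libraries, and it was 0.036 to 0.043 for these 4. TMEM100, a membrane protein gene, had 19.9 and 20.4 in DMSO and 12.1 and 12.9 in etoposide, and KCNJ5, a potassium channel gene, had 2.78 and 2.76 against 1.84 and 1.85. LRRN2 and the histone gene H2BC18 had log2 differences of −0.66 (SE 0.10) and −0.64 (SE 0.11), and reads of H2BC18 can be shared with other histone genes. These genes were chosen for a pattern that is high in DMSO and low in etoposide, so that their values are a description with no test.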

How the data were processed

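RNA of 4 OVCAR3 libraries (2 DMSO, 2 etoposide) was prepared with a kit that keeps strand, and paired ends were read. The authors used HISAT2 on GRCh38, then SAMtools, then StringTie 2.1.7 with annotated transcripts of Ensembl 104 only and no strand option. Each deposited file gives coverage, FPKM and TPM per transcript, and coverage per exon. The authors' own differential test was DESeq2 on counts, which were not used here. The design assumed FPKM, and the files hold it.

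FPKM was summed over the transcripts of each gene. Names came from the files (35886 genes) and gene types from GENCODE 44 (60463 genes matched). Genes whose mean FPKM reached 0.1 were fitted on log2(FPKM + 0.1) with limma 3.58.1 in R 4.3.3 (trend and robust moderation, group as the only term) and adjusted by Benjamini-Hochberg over 22185 genes. A fold change on this scale understates that of low genes. The files hold no counts, so that no counting interval was made, and precision rests on 2 libraries per group. The mapped read pairs were inferred as mapped bases over 200 bases. The replicate numbers were not used as pairs in the reported fit, and p-values measure the spread between these libraries. Tables were made with Python 3.11.15 and pandas 2.3.3, and figures with matplotlib 3.10.9.

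The members and lists were chosen with earlier results of these data known. CA2 was chosen for its lower level and was not tested. Named genes are the members, the rest of the family and its pseudogenes, genes within 500 kb of CA2 with a mean FPKM of at least 0.1 or with exons overlapping a member's, up to 3 genes of each list with the largest log2 difference and the 1 with the highest level (mean FPKM of at least 1), and the 5 genes nearest to CA2 in pattern. Genes lower by as much as CA2 at its level, KRT8 and the marker genes were named after their values were seen. Some genes that this rule names are not reported here. Alternatives were other pseudocounts, filters, scalings and moderation, TPM, voom on estimated fragments, a loess correction for length and GC content (span 0.3), the replicate block, leaving out each library and, chosen after the data were seen, the leading transcript alone.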

Additional observations from a re-analysis of the deposited data

How the results depend on the processing

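The lower level of CA2 kept its direction under every alternative run. CA2 was chosen for this level in these same libraries, whose groups lay apart, so that nothing is read from the direction. Its log2 difference was −0.57 with TPM, −0.58 with FPKM rescaled without mitochondrial genes, −0.68 with length and GC content corrected and −0.70 with scaling to the library median, and −0.65 to −0.63 with 1 library left out. These scalings moved the median of all genes from 0.04 to 0.10 (TPM), 0.089 (no mitochondrial genes) and −0.02 (library median). The number of genes called at an adjusted p of 0.05, 0 in the reported fit, was 1 with voom, 6 with length and GC content corrected, and 5 to 1934 with 1 library left out, 1934 when DMSO replicate 2 was left out (5 for DMSO replicate 1, 98 for etoposide replicate 1 and 102 for etoposide replicate 2). These fits assume that the lone library varies like those of the other group. The cause was not tested. With the replicate number as a block, 0 genes were called and CA2 stayed at −0.64. The deviations of same-numbered libraries had a correlation of 0.013 across genes. This value cannot show whether same-numbered libraries were handled together.

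With length and GC content corrected, CA5B was 0.0035, CA13 0.05 and CA12 −0.15, and ACACB 0.19, RBIS −0.21, E2F5 −0.25 and MCCC2 −0.14. Signs turned for small differences. CA5B was −0.0048 with voom and −0.028 by its leading transcript alone. CA8 was −0.080 and CA11 0.0071 after the length and GC correction. CA12 was 0.039 with TPM and 0.029 without mitochondrial genes. With 1 library left out, the ranges were −0.020 to 0.15 for CA8, −0.23 to 0.057 for CA11, −0.12 to 0.064 for CA12 and −0.021 to 0.31 for CA13. Elsewhere E2F5-DT was −0.011 with scaling to the library median and −0.023 with voom, ATP6V0C was 0.036 after the length and GC correction, and MCCC2 was 0.028 with TPM, 0.018 without mitochondrial genes and 0.012 with voom. With 1 library left out, the ranges were −0.11 to 0.18 for E2F5-DT, −0.27 to 0.48 for ENSG00000254208, −0.25 to 0.019 for RBIS, −0.67 to 0.17 for ENSG00000253680 and −0.0058 to 0.23 for PDZK1. The files hold no counts, so that for CA9 and other genes near 0 the depth sets no limit that can be given here.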
